A study of Mus musculus with 12 samples.

Results

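The 10 genes described here belong to the response of cells to foreign chemicals and to oxidative stress. They are the aryl hydrocarbon receptor gene Ahr, its partner Arnt, its repressor Ahrr, the target genes Cyp1a1, Cyp1b1, Tiparp and Aldh3a1, and the NRF2 gene Nfe2l2 with the targets Nqo1 and Gclm. They were listed by name, with earlier results of these data known, and all 10 were found among 17853 measured genes, with 123 of 221205 probe sets that carried 1 gene symbol. Expression was measured on 12 mouse exon arrays, on which several short probe sets cover each gene, and a gene's level is the median over its probe sets of log2(intensity + 1).

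The arrays held RNA of keratinocytes from the back skin of female mice of a C57BL6/CBA background that all carried a Gata6-mTomato reporter, so every group shares this allele. The mice were matched for age and sex, were in telogen, when hair follicles rest, and received no treatment that the labels name; the age itself is not given in the sources used here. Cells were separated by flow cytometry into 4 populations with 3 arrays each. Gata6+Itga6+ cells and Gata6+Itga6- cells both carried the reporter and differed in integrin alpha 6, a surface protein of basal keratinocytes. CD34+Itga6+ cells lacked the reporter and carried CD34, which marks the hair follicle bulge. The remaining Itga6+ cells lacked the reporter and CD34, and are called the remaining basal cells. The labels call the samples of a population biological replicates and say nothing more on how they were drawn, so every p-value measures the spread between these samples. In sorted bulk samples, fewer cells of a type and less RNA per cell cannot be told apart.

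The receptor AhR rests in the cytoplasm with chaperones. When a ligand binds, it enters the nucleus, pairs with ARNT and switches on genes of detoxification, among them P450 enzymes and its own brakes AHRR and TIPARP. NRF2 is held down by KEAP1 until electrophiles or oxidants release it, after which it raises quinone reduction, glutathione synthesis and other protective enzymes. Both pathways are known to act in the epidermis, a tissue exposed to light, pollutants and microbial products.

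Markers of the sort were mostly where the labels put them. Cd34 stood at 7.95 in CD34+Itga6+ cells and at 1.66 to 1.96 in the other populations, under 2.46, the 95th percentile of 1144 odorant and pheromone receptor genes, which is used here as the level of silent genes. The upper follicle markers Krt79 and Defb6 stood at 7.91 and 7.96 in Gata6+Itga6+ cells and at 9.52 and 9.44 in Gata6+Itga6- cells. Itga6 transcript remained at 6.02 in Gata6+Itga6- cells, against 6.76 to 7.67 elsewhere. Defining markers of Langerhans cells (Cd207), leukocytes (Ptprc), melanocytes (Dct, Tyr) and endothelium (Pecam1, Cdh5) were under the silent level in all populations. Other markers on the same lists were over it, among them H2-Ab1 also in Gata6+Itga6+ (2.68) and remaining basal cells (2.56). In Gata6+Itga6- cells these were H2-Aa (3.38) and H2-Ab1 (3.01) of 10 Langerhans cell and macrophage markers and Cd3e (2.73) and Cd3g (2.48) of 7 measured T cell markers. In CD34+Itga6+ and in Gata6+Itga6+ cells 3 of 8 melanocyte markers were over it, led by Mitf at 5.77 and 3.97. Mitf stood at 3.62 in Gata6+Itga6- and 2.85 in the remaining basal cells, and Thy1 at 3.88 in the remaining basal cells. Of 9 sebocyte markers 3 were over the silent level in every population, with Scd1 highest in the remaining basal cells (5.12) and Plin2 lowest there (3.01). The part of all these markers in the results was not tested. Of the 10 fibroblast markers 5 were over it in CD34+Itga6+ cells, led by Sparc at 8.62. Among them the collagen genes Col1a1 (2.83) and Col1a2 (2.89) were over it in no other population. Col3a1, Dcn, Lum, Pdgfra and Pdgfrb were under it in every population. The part of the fibroblast markers in the results was not tested either. Replicates of a population correlated across all probe sets on the log2 scale at r = 0.890 to 0.925, and arrays of different populations at 0.819 to 0.916.

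Of the 10 genes 3 differed among the populations, namely Ahr, Cyp1b1 and Aldh3a1. Each did so in its own way. Ahr was low in CD34+Itga6+ cells, Cyp1b1 was low in the remaining basal cells, and Aldh3a1 was high in Gata6+Itga6+ cells. By limma's moderated F-test, adjusted over all genes, these 3 of 10 passed, beside 9.38% of all genes. Over the 60 pairs of a gene and a comparison of 2 populations, 10 passed, beside 1.36% to 7.96% of all genes in single comparisons. In 14 of the 60 the replicates of both populations did not overlap, beside 15.7% to 22.7% of all genes. Comparisons that have a population in common also have its arrays in common, so they are not independent of one another.

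**Figure D1:**
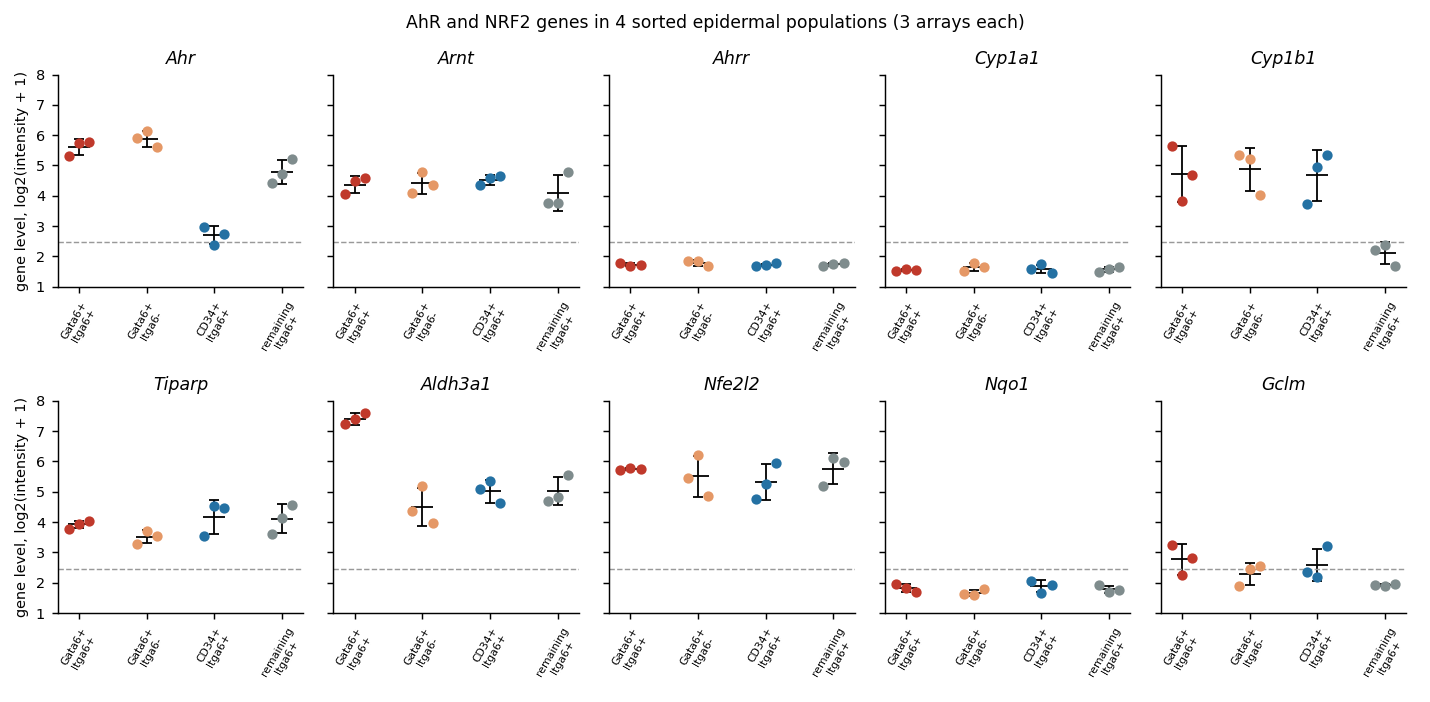
Gene level, as log2(intensity + 1), of the 10 genes on each array, by population; points are arrays, bars are the mean with the SD of 3 arrays, and the dashed line is the silent level of 2.46. Ahr is lowest in CD34+Itga6+ cells, Cyp1b1 in the remaining basal cells, and Aldh3a1 stands highest in Gata6+Itga6+ cells, while Ahrr, Cyp1a1 and Nqo1 lie under the line on every array.

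Ahr encodes the receptor itself. In CD34+Itga6+ cells its level was 2.98, 2.37 and 2.75 on the 3 arrays, close to the silent level. In the remaining basal cells it was 4.42, 4.72 and 5.22, and in Gata6+Itga6+ cells 5.30, 5.73 and 5.79. It was 5.89, 6.13 and 5.61 in Gata6+Itga6- cells. All 3 CD34+Itga6+ arrays lay below all 9 others, all 3 arrays of the remaining basal cells lay below all 6 Gata6+ arrays, and the 2 Gata6+ populations overlapped.

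Against CD34+Itga6+ cells, Ahr was 7.49-fold higher in Gata6+Itga6+ cells (log2 difference 2.90 ± 0.24 SE, limma adjusted p = 5.64e-05). It was 9.03-fold higher in Gata6+Itga6- cells (3.17 ± 0.24, limma adjusted p = 1.61e-05) and 4.25-fold higher in the remaining basal cells, where the difference of CD34+Itga6+ minus remaining cells was -2.09 ± 0.24 (limma adjusted p = 0.000506). These 3 calls held under all 22 alternative settings, and within the 3 rows of arrays, each of which held 1 array of every population, the difference of Gata6+Itga6+ over CD34+Itga6+ cells ran from 2.75 to 3.04. The step from the remaining basal cells to Gata6+Itga6- cells was smaller, 2.13-fold (1.09 ± 0.24, limma adjusted p = 0.0258). That call was lost without replicate 1 or 2 of Gata6+Itga6- cells (adjusted p = 0.0778 and 0.102) and without replicate 1 or 2 of the remaining basal cells (0.0884 and 0.0889), and in 4 of 10 other settings, the highest adjusted p being 0.485 with the brightest probe set in place of the median (0.75). Within the rows of arrays the difference was 0.39 to 1.47. For Gata6+Itga6+ cells over the remaining basal cells the arrays did not overlap, but the difference of 0.82 did not pass (95% interval 0.29 to 1.35, limma adjusted p = 0.182).

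The receptor gene is covered by 15 probe sets, 14 of them over 2.94, the silent level of probe sets, in at least 1 population. The mean of CD34+Itga6+ cells was the lowest of the 4 in 14 of the 15, and that of Gata6+Itga6- cells the highest in 11. By the F-test over single probe sets, 10 of the 15 passed, beside 4.51% of all probe sets. The clearest of these, probe set 4916173, stood at 2.71 in CD34+Itga6+ cells, 5.70 in the remaining basal cells, 6.85 in Gata6+Itga6+ cells and 7.02 in Gata6+Itga6- cells. Probe set 5544401 was the brightest and kept a level of 5.0 in CD34+Itga6+ cells, against 7.01 to 7.76 elsewhere.

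Of the 8 measured markers of differentiating keratinocytes 5 had their lowest mean in CD34+Itga6+ cells and 6 their highest in Gata6+Itga6- cells, the lowest and highest populations of Ahr. Krt1 and Tgm3 were highest in the remaining basal cells, at 7.15 and 3.57, and Sbsn was lowest there, at 6.65. The summed log2 level of the 8 was 28.4 to 31.1 on the CD34+Itga6+ arrays, with 5 of 8 over the silent level. It was 39.4 to 43.0 on the arrays of the remaining basal cells (6 of 8), 43.9 to 48.5 in Gata6+Itga6+ cells (7 of 8) and 52.2 to 53.6 in Gata6+Itga6- cells (7 of 8). The fibroblast list summed to 28.3 to 30.7 in CD34+Itga6+ cells, 22.9 to 24.7 in the remaining basal cells and 19.1 to 20.0 over the 6 Gata6+ arrays. Sparc (8.62 in CD34+Itga6+ cells against 2.78 and 1.99 in the Gata6+ populations) and Fbln1 (4.24 against 2.18 and 2.0) held most of that gap. The 7 bulge markers, all highest in CD34+Itga6+ cells, summed to 51.6 to 52.8 there and to 16.6 to 22.8 over the other 9 arrays. The part of these lists in the Ahr result was not tested.

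The gene for ARNT, which pairs with AhR and with hypoxia factors, did not follow Ahr. Arnt was 4.06, 4.47 and 4.57 in Gata6+Itga6+ cells, 4.09, 4.79 and 4.36 in Gata6+Itga6- cells. CD34+Itga6+ cells had 4.35, 4.57 and 4.66. In the remaining basal cells it was 3.75, 3.78 and 4.78. The populations overlapped, none of the 6 comparisons passed, and the F-test gave an adjusted p of 0.785 in limma. Between CD34+Itga6+ and the remaining basal cells the 95% interval of the difference ran from -0.20 to 1.06. Of its 28 probe sets 23 were lowest in the remaining basal cells, and none passed the F-test. The low values came from replicates 1 and 2 of that population, which were also the 2 dimmest arrays, with upper quartiles of intensity of 12.2 and 12.6 against 13.3 to 17.8 on the other 10; the part of brightness in this was not tested.

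Of the repressor AHRR, which competes with AhR for ARNT, no transcript was seen over the silent level: Ahrr lay between 1.67 and 1.85 on all 12 arrays, and its population means differed by at most 0.071. Only 2 of its 19 probe sets were over the silent level of probe sets in any population. TIPARP adds ADP-ribose to AhR and dampens it. Tiparp was 3.28, 3.71 and 3.54 in Gata6+Itga6- cells, 3.78, 3.95 and 4.04 in Gata6+Itga6+ cells, 3.53, 4.53 and 4.45 in CD34+Itga6+ cells, and 3.61, 4.15 and 4.56 in the remaining basal cells. Its mean was lowest in Gata6+Itga6- cells, also in 9 of 13 probe sets, and the 2 Gata6+ populations did not overlap, but no comparison passed. The widest difference, Gata6+Itga6- minus CD34+Itga6+ cells, was -0.66 with a 95% interval of -1.30 to -0.02 (limma adjusted p = 0.259), and it passed without replicate 1 of CD34+Itga6+ cells (-0.98, adjusted p = 0.0458) and with the mean of probe sets in place of the median (-0.64, adjusted p = 0.0488). A single probe set of Tiparp passed a comparison, at 2.73 log2 units lower in Gata6+Itga6- than in the remaining basal cells.

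The P450 enzymes CYP1A1 and CYP1B1 are both classic products of AhR activity, and their genes gave different pictures. Cyp1a1 stayed between 1.46 and 1.78 on all 12 arrays, under the silent level, as did all 8 of its probe sets under theirs. Cyp1b1, whose enzyme oxidises polycyclic hydrocarbons, oestrogens and retinol, was measured at 5.65, 3.83 and 4.68 in Gata6+Itga6+ cells and at 5.34, 5.23 and 4.04 in Gata6+Itga6- cells. CD34+Itga6+ cells had 3.74, 4.95 and 5.35. In the remaining basal cells it was 2.22, 2.39 and 1.70, under the silent level on every array. All 9 arrays of the other populations lay above these 3, and those 9 overlapped with no order among their populations.

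Because the remaining basal cells were under the silent level, folds over them are lower bounds taken against that level. In Gata6+Itga6+ cells Cyp1b1 was higher by at least 4.78-fold (log2 difference 2.62 ± 0.54 SE, limma adjusted p = 0.0496), in Gata6+Itga6- cells by at least 5.31-fold (2.77 ± 0.54, adjusted p = 0.0143) and in CD34+Itga6+ cells by at least 4.65-fold (2.57 ± 0.54, adjusted p = 0.0207). The spread among replicates was wide, and each call rested on single arrays. The call for Gata6+Itga6- cells was lost without its replicate 1 or 2 (adjusted p = 0.0580 and 0.0609). For CD34+Itga6+ cells it was lost without replicate 2 or 3 of these cells (0.0717 and 0.0825) and without replicate 1 or 3 of the remaining basal cells (0.0571 and 0.0659). The call for Gata6+Itga6+ cells was kept in 3 of 12 fits with 1 array left out; it was lost without any 1 array of the remaining basal cells (0.0903 to 0.137), replicate 1 or 3 of Gata6+Itga6+ cells (0.148 and 0.153), replicate 2 or 3 of CD34+Itga6+ cells (0.0755 and 0.0534), or replicate 1 or 2 of Gata6+Itga6- cells (0.0703 and 0.0691). With 16 in place of 1 added to the intensities, none of the 3 passed (0.107, 0.143 and 0.250, in the order Gata6+Itga6-, CD34+Itga6+ and Gata6+Itga6+ cells). Within the rows of arrays the 3 differences stayed above 0, at 1.44 to 3.43 for Gata6+Itga6+, 2.34 to 3.12 for Gata6+Itga6- and 1.35 to 3.65 for CD34+Itga6+ cells.

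All 7 probe sets of Cyp1b1 were lowest in the remaining basal cells and over the probe set silent level in another population. Probe sets 4749560 and 5309892 stood at 2.73 and 2.55 there and at 6.52 to 7.65 in the other 3 populations. The brightest, 5066606, kept 5.57 in the remaining basal cells against 6.98 to 7.73 elsewhere. By the F-test 3 of the 7 passed. Between any pair of the other 3 populations the gene level differed by at most 0.19, with 95% intervals reaching from -1.16 to 1.40, and none of their comparisons passed. With array brightness as a covariate the difference was 2.72 for Gata6+Itga6- cells (adjusted p = 0.0184), 2.38 for CD34+Itga6+ cells (0.0686) and 2.35 for Gata6+Itga6+ cells (0.252). On the 3 arrays of the remaining basal cells, Cyp1b1 was 2.22, 2.39 and 1.70 at upper quartiles of intensity of 12.2, 12.6 and 16.2. The part of brightness in the Cyp1b1 differences was not tested.

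Aldh3a1 encodes a dehydrogenase that clears aldehydes from lipid peroxidation and is known as a target of AhR and as a protein of the cornea. Its level was 7.22, 7.39 and 7.61 in Gata6+Itga6+ cells. It was 4.36, 5.19 and 3.97 in Gata6+Itga6- cells, 5.08, 5.36 and 4.62 in CD34+Itga6+ cells, and 4.69, 4.84 and 5.55 in the remaining basal cells. The 3 Gata6+Itga6+ arrays lay above all 9 others, which overlapped across their 3 populations.

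In Gata6+Itga6+ cells Aldh3a1 was 5.24-fold higher than in CD34+Itga6+ cells (2.39 ± 0.33 SE, limma adjusted p = 0.00207) and 5.21-fold higher than in the remaining basal cells (2.38 ± 0.33, adjusted p = 0.00577). Gata6+Itga6- cells had 7.49-fold less of it than Gata6+Itga6+ cells (log2 difference -2.90 ± 0.33, adjusted p = 0.00123). Within the rows of arrays that last difference ran from -3.64 to -2.20, and the other 2 from 1.86 to 2.99 and from 2.06 to 2.56. All 11 probe sets were highest in Gata6+Itga6+ cells, and 10 were lowest in Gata6+Itga6- cells. Between Gata6+Itga6+ and CD34+Itga6+ cells the 11 probe sets differed by 1.90 to 2.73, and 9 of the 11 passed the F-test. The brightest probe set, 4641650, stood at 9.16 in Gata6+Itga6+ cells and at 6.80 to 7.20 in the others. Taken alone for the gene, the brightest probe set did not pass against the remaining basal cells (1.96, adjusted p = 0.0690). Between Gata6+Itga6- cells and the 2 populations without the reporter the differences were -0.52 to CD34+Itga6+ cells (95% interval -1.24 to 0.21) and -0.52 to the remaining basal cells (-1.25 to 0.21), and neither passed.

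**Figure D2:**
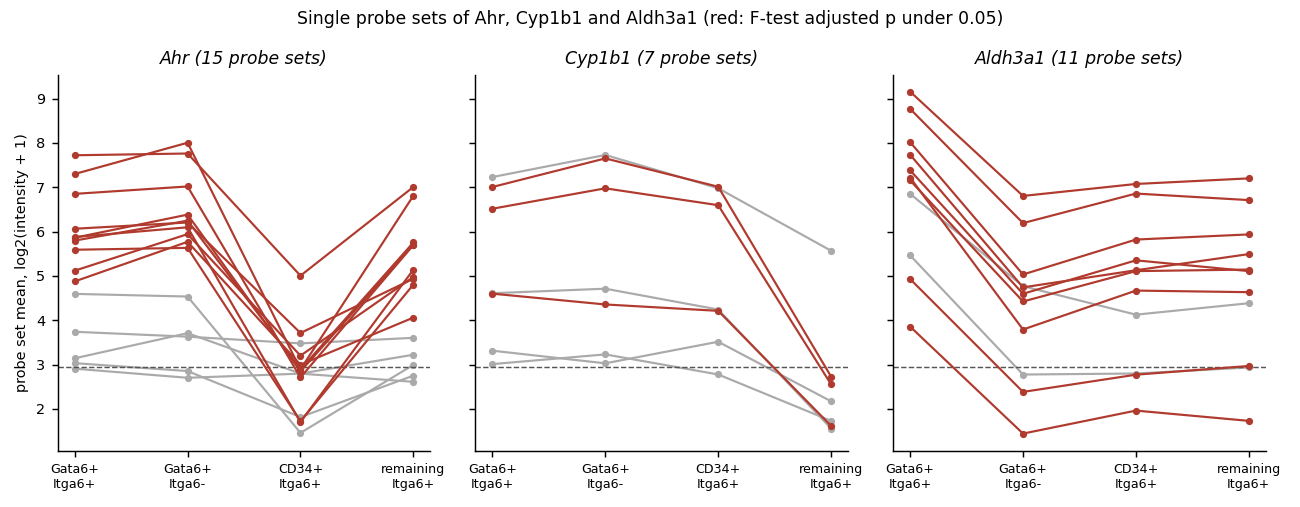
Mean level of each probe set of Ahr, Cyp1b1 and Aldh3a1 in the 4 populations, as log2(intensity + 1); each line is a probe set, red where the F-test passed, and the dashed line is the probe set silent level of 2.94. The dip of Ahr in CD34+Itga6+ cells, that of Cyp1b1 in the remaining basal cells and the peak of Aldh3a1 in Gata6+Itga6+ cells recur over 14 of 15, 7 of 7 and 11 of 11 probe sets.

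Of the NRF2 genes, Nfe2l2 was measured in every population without a difference that passed. Its level was 5.71, 5.79 and 5.74 in Gata6+Itga6+ cells, 5.44, 6.22 and 4.85 in Gata6+Itga6- cells, 4.77, 5.26 and 5.96 in CD34+Itga6+ cells, and 5.18, 6.12 and 5.98 in the remaining basal cells. The populations overlapped, limma's F-test gave an adjusted p of 0.860, and none of its 7 probe sets passed. The 95% intervals of its 6 differences reached from -1.29 to 1.27, so differences up to about that size would fit these arrays. NRF2 is controlled mainly by protein turnover, which the arrays do not measure.

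Nqo1 encodes a quinone reductase and Gclm the modifier subunit of the enzyme that starts glutathione synthesis. As medians over probe sets both were dim. Nqo1 lay between 1.59 and 2.06 on all arrays, under the silent level. Gclm was 3.25, 2.25 and 2.80 in Gata6+Itga6+ cells, 1.88, 2.44 and 2.57 in Gata6+Itga6- cells, 2.36, 2.20 and 3.21 in CD34+Itga6+ cells, and 1.94, 1.90 and 1.97 in the remaining basal cells. Gclm of Gata6+Itga6+ and of CD34+Itga6+ cells did not overlap with the remaining basal cells, but the differences of 0.83 (95% interval 0.15 to 1.51, limma adjusted p = 0.316) and 0.65 (-0.03 to 1.33, adjusted p = 0.350) did not pass.

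The median hid single bright probe sets, which were picked out here after their values were seen. Of the 8 probe sets of Nqo1, only 5262866 was over the probe set silent level. It stood at 7.52, 7.45 and 7.86 in Gata6+Itga6+ cells, with 6.02, 6.29 and 6.04 for Gata6+Itga6- cells. CD34+Itga6+ cells had 6.69, 7.05 and 7.41. In the remaining basal cells it was 2.98, 2.53 and 5.27. All 3 of these arrays lay below the other 9, replicate 3 far less so than replicates 1 and 2. The difference over the remaining basal cells was 4.02 ± 0.57 SE for Gata6+Itga6+ cells (limma adjusted p over all probe sets 0.0118), 3.45 ± 0.57 for CD34+Itga6+ cells (0.00840) and 2.52 ± 0.57 for Gata6+Itga6- cells (0.0480).

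The Nqo1 difference for CD34+Itga6+ cells passed in all 19 alternative fits. For Gata6+Itga6+ cells it was lost without their replicate 3 (adjusted p = 0.0591) and without replicate 1 of the remaining basal cells (0.0514). For Gata6+Itga6- cells it was lost in 11 of 12 fits that left out 1 array (0.0667 to 0.155), all but the one without replicate 3 of the remaining basal cells, and with 16 added to the intensities (0.0584). Replicates 1 and 2 of the remaining basal cells, where the probe set was lowest, were the 2 dimmest arrays. With brightness as a covariate the 3 differences were 2.96, 2.67 and 2.32, in the order Gata6+Itga6+, CD34+Itga6+ and Gata6+Itga6- cells. Without it they were 4.02, 3.45 and 2.52. Each passed with the covariate (limma adjusted p = 0.0304, 0.00766 and 0.00715). The part of brightness in these differences was not tested.

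Gclm had 3 of 7 probe sets over the silent level, and in 2 of these, as in the Nqo1 probe set, the remaining basal cells were lowest and Gata6+Itga6- cells next. Probe set 5434568 was 5.99, 4.57 and 5.53 in Gata6+Itga6+ cells, where CD34+Itga6+ cells had 4.74, 6.23 and 5.13. Gata6+Itga6- cells had 3.40, 3.94 and 2.57, the remaining basal cells 2.37, 1.89 and 2.71. The first 2 populations lay above the last 2 with no overlap, and the last 2 overlapped with each other. Over the remaining basal cells the difference was 3.04 ± 0.49 SE in CD34+Itga6+ cells (limma adjusted p = 0.00799) and also 3.04 ± 0.49 in Gata6+Itga6+ cells (0.0263). Gata6+Itga6- cells were lower than CD34+Itga6+ cells by a difference of -2.06 ± 0.49 (0.0459).

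The call in CD34+Itga6+ cells held in 18 of 19 alternative fits, all but that with 16 added to the intensities (adjusted p = 0.0505). That in Gata6+Itga6+ cells held in 12 and was lost without replicate 1 or 3 of these cells (adjusted p = 0.100 and 0.107) or replicate 1 or 2 of the remaining basal cells (0.0862 and 0.109), with brightness as a covariate (0.202), with 16 added (0.126) and in 1 other fit. The call between Gata6+Itga6- and CD34+Itga6+ cells held in 7 of 19 and was lost in 8 of 12 fits with 1 array left out (up to 0.163). Probe set 4328135 stood at 5.04, 3.82, 4.99 and 2.80 in Gata6+Itga6+, Gata6+Itga6-, CD34+Itga6+ and remaining basal cells, without passing, while 5154057 stood at 3.01 to 3.30 with no such order. The sources used here do not place these probe sets in the exons of either gene.

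**Figure D3:**
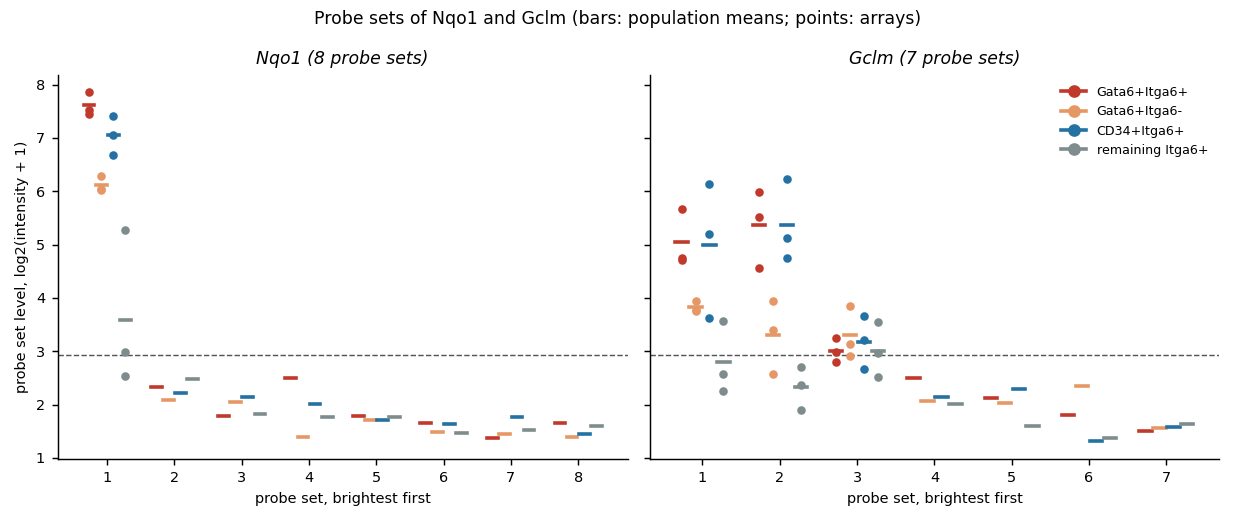
Level of each probe set of Nqo1 and Gclm, as log2(intensity + 1), brightest first; bars are population means, points are the arrays of the probe sets over the silent level (dashed line, 2.94). The first probe set of Nqo1 is low in the remaining basal cells (3.60 against 6.12 to 7.61), and the other 7 lie under the line in all populations, as do 4 of the 7 of Gclm.

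Cyp1b1 thus had its lowest gene level in the remaining basal cells. So did the Nqo1 probe set 5262866 and the Gclm probe set 5434568, both picked after their values were seen. At the gene level Gclm was also lowest there without passing. Nqo1, under the silent level in every population, had its lowest gene level in Gata6+Itga6- cells (1.66). The promoters of Cyp1b1, Nqo1 and Gclm are printed to show what letters they have in common, with that of the silent gene Cyp1a1 beside them. RefSeq, on build GRCm38.p6, which is not the mm9 build of the arrays, gave a promoter for 8 of the 10 genes. Each sequence is the 250 bases before the annotated start, read 5′ to 3′ on the gene's strand. Capitals mark the core of the AhR-ARNT site, GCGTG or its reverse complement CACGC, and the core of the antioxidant response element through which NRF2 acts, TGACNNNGC or its reverse complement GCNNNGTCA.
Cyp1b1 promoter, chr17:79715062-79715311, minus strand: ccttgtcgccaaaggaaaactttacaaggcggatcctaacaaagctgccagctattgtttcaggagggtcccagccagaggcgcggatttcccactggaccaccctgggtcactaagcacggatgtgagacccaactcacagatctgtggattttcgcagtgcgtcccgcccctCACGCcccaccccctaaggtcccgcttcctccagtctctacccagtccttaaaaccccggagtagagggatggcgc
Gclm promoter, chr3:122245307-122245556, plus strand: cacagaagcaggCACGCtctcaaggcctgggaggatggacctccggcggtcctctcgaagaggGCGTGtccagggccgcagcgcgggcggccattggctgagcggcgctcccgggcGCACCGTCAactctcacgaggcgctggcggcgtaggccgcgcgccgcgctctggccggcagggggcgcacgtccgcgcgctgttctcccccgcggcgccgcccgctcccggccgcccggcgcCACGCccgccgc
Nqo1 promoter, chr8:107403206-107403455, minus strand: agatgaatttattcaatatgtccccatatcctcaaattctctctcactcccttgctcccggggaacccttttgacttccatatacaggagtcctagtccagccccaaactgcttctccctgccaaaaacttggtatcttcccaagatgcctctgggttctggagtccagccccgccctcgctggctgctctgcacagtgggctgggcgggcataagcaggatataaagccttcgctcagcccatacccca
Cyp1a1 promoter, chr9:57697363-57697612, plus strand: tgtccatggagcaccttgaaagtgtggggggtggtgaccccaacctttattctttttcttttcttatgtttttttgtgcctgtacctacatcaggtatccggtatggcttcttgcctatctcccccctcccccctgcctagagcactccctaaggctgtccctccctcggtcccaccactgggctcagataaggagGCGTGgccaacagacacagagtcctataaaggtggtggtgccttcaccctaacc

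The AhR-ARNT core was in 6 of the 8 promoters and in 28.2% of 32851 RefSeq promoters of the same length. Cyp1b1 and Cyp1a1 had 1 such core each, and Gclm had 3. The antioxidant core was in 3 of the 8, beside 10.2% of all promoters, with 1 match in Gclm and Nfe2l2 and 2 in Arnt. Nqo1 had neither core in this window. Neither core was common to the printed promoters of Cyp1b1, Gclm and Nqo1. The AhR-ARNT core was in those of Cyp1b1 and Gclm and of the silent Cyp1a1. The part of these cores in the levels was not tested. A match is only a run of letters, and a missing match says only that these letters are not in these 250 bases.

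Between Gata6+Itga6+ and CD34+Itga6+ cells 2 of the 10 genes passed, Ahr and Aldh3a1, beside 4.59% of all genes; 2 of 10 did not overlap, beside 19.5%. Gata6+Itga6+ over the remaining basal cells gave 2 (Aldh3a1, Cyp1b1), beside 1.36%, and 4 without overlap, beside 15.7%. Between Gata6+Itga6- and Gata6+Itga6+ cells 1 passed (Aldh3a1, lower), beside 3.18%, and 2 did not overlap, beside 19.4%. Of the 10 genes 7 passed in no comparison.

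Gata6+Itga6- over CD34+Itga6+ cells gave 1 (Ahr), beside 7.96%, and 1 without overlap, beside 22.7%. Over the remaining basal cells 2 passed (Ahr, Cyp1b1), beside 5.11%, and 2 did not overlap, beside 19.8%. CD34+Itga6+ against the remaining basal cells gave 2 in opposite directions (Cyp1b1 higher, Ahr lower), beside 5%, and 3 without overlap, beside 18.8%. The median difference of the 10 genes lay between -0.06 and 0.16 in the 6 comparisons, and that of all genes between -0.03 and 0.04.

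**Figure D4:**
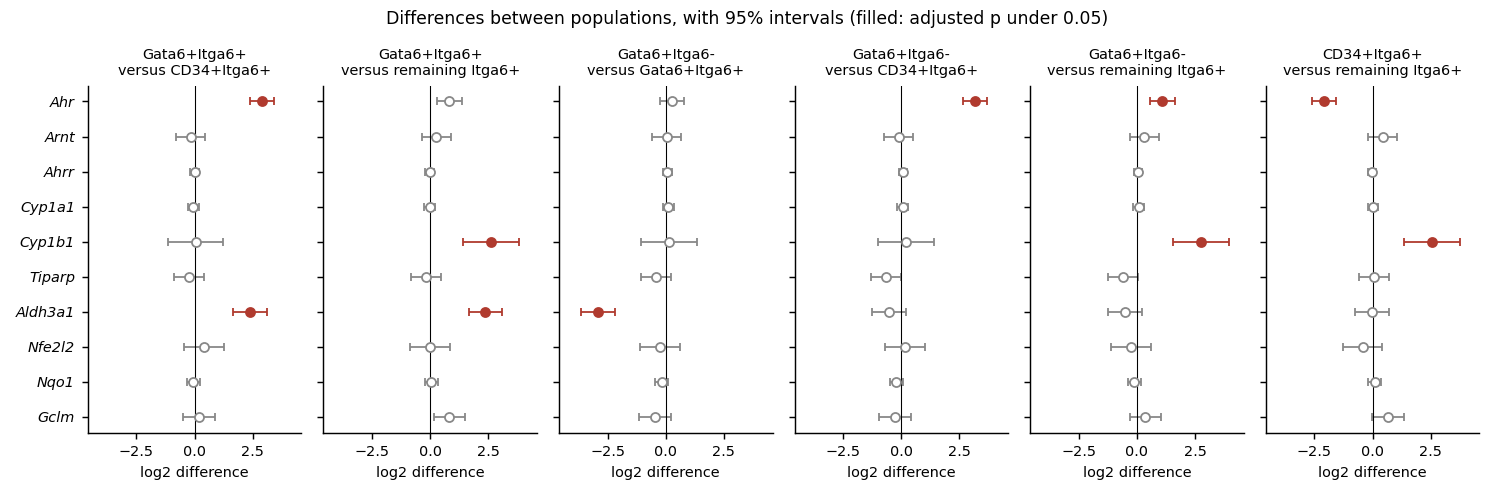
Log2 difference of the 10 genes in the 6 comparisons of 2 populations, as the first named minus the second; bars are 95% intervals of limma's fit, and filled red points passed at an adjusted p under 0.05. Of 60 differences 10 passed, all of them in Ahr, Cyp1b1 and Aldh3a1, beside 1.36% to 7.96% of all genes in single comparisons.

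By single probe sets, 24 of the 123 passed the F-test, or 19.5%, beside 4.51% of all probe sets. They were 10 of Ahr, 9 of Aldh3a1, 3 of Cyp1b1 and 1 each of Nqo1 and Gclm. None of the probe sets of Ahrr, Arnt, Cyp1a1, Tiparp and Nfe2l2 passed it, and 4 of those 75 had an unadjusted p under 0.05 in limma. The share of all probe sets with such a p is not given here, so this count is not read as a difference. Probe sets of a gene measure the same transcript pool and are not independent replicates. In the 6 comparisons 18, 10, 9, 11, 10 and 12 of the 123 passed, in the order used above, beside 1.86%, 0.528%, 0.933%, 3.98%, 2.38% and 2.5% of all probe sets.

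Genes whose levels ran most like those of the 3 differing genes were found by Pearson correlation over the 12 arrays among 9107 other genes over the silent level. The arrays fall into populations, so these values describe shared patterns over 4 groups. Most like Ahr were Acsl1 (r = 0.972), Ghr (0.968) and Slc16a14 (0.967), which encode an acyl-CoA synthetase, the growth hormone receptor and a monocarboxylate transporter. Acsl1, for example, stood at 2.44 ± 0.29 (SD, n = 3) in CD34+Itga6+ cells, 4.87 ± 0.51 in the remaining basal cells, 5.70 ± 0.19 in Gata6+Itga6+ cells, with 5.54 ± 0.18 for Gata6+Itga6- cells. Most like Cyp1b1 were Cgnl1 (0.925), for the junction protein paracingulin, Irx3 (0.921), a homeobox factor, and Plin2 (0.914), a lipid droplet protein. Cgnl1 stood at 2.07 ± 0.07 in the remaining basal cells and at 5.82 to 6.08 in the others. Most like Aldh3a1 were the cohesin gene Smc1a (0.930), the translation factor gene Eif4b (0.926) and Kazald1 (0.924), which stood at 3.83 ± 0.28 in Gata6+Itga6+ cells and at 1.81 to 2.17 elsewhere.

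The wider pathway was followed through 8 lists with 154 genes, of which 142 were measured and 46 were under the silent level in all populations. Of the 142 genes 32 passed the F-test, or 22.5%, beside 9.38% of all genes. Of all 17853 genes 8745 were under the silent level in all populations, a larger part than in the lists, so these shares have unlike bases. Gata6+Itga6- cells held the highest mean of 11 of the 32 and the lowest of 12, and CD34+Itga6+ cells the highest of 12 and the lowest of 11. The remaining basal cells had the lowest mean of 9, and Gata6+Itga6+ cells of 0. Among all 1675 genes that passed, the lowest mean was in these 4 populations in 36.8%, 29.1%, 29.1% and 4.96%, in the same order, so the pathway genes were spread much like the rest.

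Among 9 measured partners and chaperones of AhR none passed any comparison in limma. For 6 of the 9 limma's unadjusted p was under 0.05 in at least 1 comparison, and 5 had a probe set that passed the F-test. The share of all genes that meets either looser rule was not computed, so neither count is read as a difference. Of all probe sets 4.51% passed the F-test, and genes had a median of 10 probe sets. The chaperone gene Hsp90ab1 stood at 8.61 to 9.01 and Hif1a, for another partner of ARNT, at 4.61 to 5.99 in the population means. Of all genes 12.1% passed at least 1 of the 6 comparisons, and the counts of the lists below stand beside that share. Of 13 measured further AhR targets 5 passed at least 1 comparison, in different directions, and 4 passed the F-test. Nfe2l3, for the NRF2 relative NRF3, was 6.0 ± 0.56 (SD, n = 3) in Gata6+Itga6- cells and 3.04 to 3.47 in the others, 5.81-fold higher than in Gata6+Itga6+ cells (log2 difference 2.54 ± 0.27 SE, limma adjusted p = 0.000810). Ptgs2, for the inducible prostaglandin synthase, was 3.87 ± 0.87 in CD34+Itga6+ cells and under the silent level in both Gata6+ populations. Cyp2s1 was also highest in CD34+Itga6+ cells, at 4.25 ± 0.81 against 2.41 to 2.84. The serotonin receptor gene Htr2b passed with all its levels under the silent level, at 1.85 to 2.28. Cyp1a2, like Cyp1a1, lay under it, at 1.45 to 1.57.

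Of 14 measured regulators and partners of NRF2, 2 passed a comparison and the F-test, Nfe2l3 and the F-box gene Btrc, whose product helps degrade NRF2. Btrc was 2.92 ± 0.12 in CD34+Itga6+ cells and under the silent level elsewhere. Cul3 and Gsk3b, whose products mark NRF2 for degradation, stood at 6.23 to 6.80 and 5.91 to 6.35. Keap1 itself, added to the named genes after its values were seen, stood at 2.34 to 3.04 without passing.

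The glutathione and thioredoxin genes gave 10 of 28 with a passing comparison, and 6 of 28 passed the F-test. In Gata6+Itga6- cells 5 were lower than in CD34+Itga6+ cells and 1 was higher. Of all genes 7.96% passed in this comparison, 847 lower and 574 higher, so calls leaned to lower there as well. The median difference of the list was -0.14 beside -0.02 for all genes. Gpx8, a peroxidase of the endoplasmic reticulum, stood at 2.94 ± 0.28 in Gata6+Itga6- and 6.31 ± 0.24 in CD34+Itga6+ cells, a 10.3-fold difference (log2 -3.36 ± 0.45 SE, limma adjusted p = 0.000883). Gpx1, the main cytosolic glutathione peroxidase, was 6.43 ± 0.45 in Gata6+Itga6- cells and 7.23 to 7.97 elsewhere. Slc3a2, the heavy chain of amino acid transporters that include the cystine carrier, was 5.79 ± 0.47 in CD34+Itga6+ cells and 3.46 in both Gata6+Itga6- and remaining basal cells. Gclc, the catalytic partner of Gclm and chosen here after its value was seen, was 3.45 ± 0.51 in CD34+Itga6+ and 2.38 ± 0.18 in the remaining basal cells, at least 1.99-fold higher (log2 difference 1.08 ± 0.27, adjusted p = 0.0469). Prdx5 and Prdx6 did not pass.

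Of 20 measured glutathione transferases 5 passed a comparison and 3 the F-test; near-identical family members can share signal, so single names are uncertain. Gstm5 was lowest in the same population as Cyp1b1, with 4.61 ± 0.17 in the remaining basal cells, 6.49 ± 0.59 in CD34+Itga6+, 8.07 ± 0.16 in Gata6+Itga6+ cells, with 8.53 ± 0.27 for Gata6+Itga6- cells. That is 11.0-fold higher in Gata6+Itga6+ than in the remaining basal cells (log2 difference 3.46 ± 0.26 SE, limma adjusted p = 1.00e-04). Mgst1, a membrane-bound transferase, was under the silent level in the remaining basal cells and 3.12 to 3.95 in the others. Gstk1 was lower in Gata6+Itga6- cells (2.96 ± 0.44) than in CD34+Itga6+ cells (4.93 ± 0.91), whereas Gstp1 and Gstm1 did not pass.

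Of 26 other NRF2 targets 7 passed a comparison and 6 the F-test. Ptgr1, which reduces reactive aldehydes and prostaglandins, was high in the Gata6+ populations (7.49 ± 0.41 with Itga6, 8.49 ± 0.04 without) against 4.14 ± 0.26 in CD34+Itga6+ and 4.65 ± 0.78 in the remaining basal cells. The ferritin heavy chain gene Fth1 was low in Gata6+Itga6- cells, at 5.18 ± 0.15, and 7.27 to 7.97 in the others, 4.24-fold less than in Gata6+Itga6+ cells (log2 difference -2.09 ± 0.16 SE, limma adjusted p = 9.91e-05). Abcc1, an exporter of conjugates, was lowest in CD34+Itga6+ cells (2.73 ± 0.08) and highest in Gata6+Itga6- cells (4.94 ± 0.28), the same lowest and highest populations as Ahr. Ephx1, an epoxide hydrolase, had the opposite ends, 7.16 ± 0.23 in CD34+Itga6+ and 4.83 ± 0.80 in Gata6+Itga6- cells. Hmox1, a target named here after its values were seen, was under the silent level in all populations, at 1.84 to 1.89.

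Of 19 aldehyde dehydrogenases including relatives of Aldh3a1, 5 passed a comparison and 5 the F-test, and the order of the 3 described here was not that of Aldh3a1. Aldh3a2, which oxidises fatty aldehydes, was high in both Gata6+ populations, at 5.80 ± 0.20 and 6.14 ± 0.14, against 4.40 ± 0.78 in CD34+Itga6+ and 3.38 ± 0.47 in the remaining basal cells. Aldh1a1 and Aldh1a7, close relatives whose probes may share signal, had their highest means in different Gata6+ populations, Aldh1a1 at 3.94 ± 0.68 in Gata6+Itga6+ and Aldh1a7 at 4.36 ± 0.49 in Gata6+Itga6- cells, but between those 2 populations neither passed (limma adjusted p = 0.225 for Aldh1a1 and 0.0856 for Aldh1a7). Aldh2 and Aldh16a1 did not pass. Of 17 other P450 and related genes 9 passed a comparison and 8 the F-test. Cyp2b19, an epoxygenase of the epidermis, was 6.61 ± 0.38 in Gata6+Itga6- cells and 2.07 to 2.66 in the others, 15.6-fold above Gata6+Itga6+ cells (log2 difference 3.96 ± 0.19 SE, limma adjusted p = 4.25e-06). Cyp27a1, a sterol hydroxylase, was 4.53 ± 0.49 and 5.04 ± 0.27 in the Gata6+ populations and under the silent level in both others. Cyp26b1, which degrades retinoic acid, was over the silent level only in CD34+Itga6+ cells, at 3.31 ± 0.19.

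**Figure D5:**
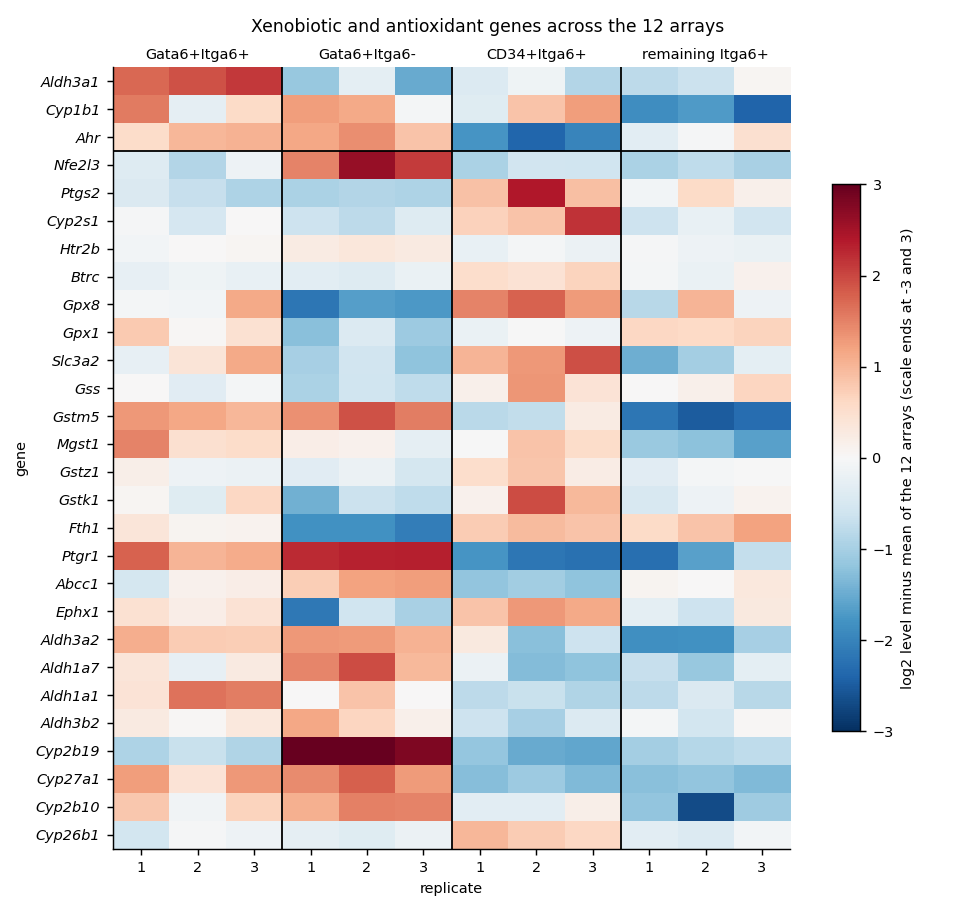
Level of Aldh3a1, Cyp1b1, Ahr (above the line) and the called genes named from the pathway lists (below it) on the 12 arrays, as the log2 level minus the gene's mean over all arrays; red is above and blue below the mean, and columns are replicates 1 to 3 of each population. Cyp2b19 and Nfe2l3 stand out in Gata6+Itga6- cells, Ptgr1 and Cyp27a1 in both Gata6+ populations, and Gstm5 is low in the remaining basal cells.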

How the data were processed

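The authors deposited 1 intensity per probe set and array, made by robust multi-array average (RMA) with Affymetrix Power Tools on mm9, per the submitters' processing notes, with versions not stated. Per the labels' protocols, RNA of sorted cells was isolated with a micro column kit, amplified and labelled with biotin. The scale was not stated and was taken as linear from the values (array medians 3.97 to 4.57, maxima 2172 to 2953). RMA puts arrays on a common scale, so a shift shared by most genes is reduced. Of 235932 probe sets, 221205 with 1 symbol were used, 1684 had several and 13043 none listed here; 15377 symbols were current in the reference table (GRCm38.p6), 2489 were updated and 42 kept. Intensities were log2-transformed after adding 1, which shrinks differences of dim genes. The fit was limma 3.58.1 in R 4.3.3, with 1 mean per population over all 12 arrays, empirical Bayes moderation (prior degrees of freedom 2.12, residual 8) and Benjamini-Hochberg adjustment over 17853 genes, or over all probe sets; a call is an adjusted p under 0.05. The number of arrays limits the precision. Where a lower mean was under the silent level, the fold was taken against that level.

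Members and lists were chosen with earlier results of these data known. Named from each list were at most 4 called genes with the smallest adjusted p and 2 uncalled genes with the highest mean, and for each called member the 3 genes most correlated with it; Keap1, Gclc, Cyp1a2 and Hmox1 were added after their values were seen. Tested on simulated data for Gata6+Itga6+ against CD34+Itga6+ cells in 17853 genes, the fit called 24%, 54%, 96% and 96% of the genes given a log2 difference of 0.5, 1, 2 and 3 (50 genes for each size), with 13 false calls. Alternatives covered the summary of probe sets, pseudocount, normalization, dim genes, the variance model, blocks, brightness, the populations fitted and each array left out.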

Additional observations from a re-analysis of the deposited data

How the results depend on the processing

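All 10 called differences kept their sign in 220 of 220 alternative values and stayed called in 186; 5 were called in every alternative, Ahr and Aldh3a1 in Gata6+Itga6+ over CD34+Itga6+ cells, Ahr in Gata6+Itga6- and in the remaining basal cells over CD34+Itga6+ cells, and Aldh3a1 in Gata6+Itga6+ over Gata6+Itga6- cells. Ahr in Gata6+Itga6- over the remaining basal cells was kept in 8 of 12 fits that left out 1 array and in 6 of 10 others (adjusted p up to 0.485). For Cyp1b1 over the remaining basal cells these counts were 10 and 9 in Gata6+Itga6- (up to 0.107), 8 and 7 in CD34+Itga6+ (up to 0.156) and 3 and 4 in Gata6+Itga6+ cells (up to 0.252). The causes were not tested. With the mean of probe sets in place of the median, 5 of the 10 genes passed the F-test instead of 3. The share of all genes passing it in this setting is not given here, so the rise is not read as particular to the 10. In this setting 4 of the 10 passed in Gata6+Itga6+ over remaining, where calls over all genes rose from 242 to 454. In CD34+Itga6+ over remaining 4 passed (all genes 892 to 1513), and in Gata6+Itga6- over CD34+Itga6+ cells 2 (1421 to 2159). The count for Gata6+Itga6+ over the remaining basal cells was 1 with the brightest probe set, pseudocount 16, either block, the brightness covariate or only the 2 populations fitted, and 1 to 2 with 1 array left out. For CD34+Itga6+ against the remaining basal cells it was 1 with pseudocount 16 or the brightness covariate, and 1 to 2 with 1 array left out. For Gata6+Itga6- over the remaining basal cells it was 1 with pseudocount 16, the intensity trend, only 2 populations or the replicate block, and 0 to 2 with 1 array left out; over CD34+Itga6+ cells it was 1 to 2. Nqo1 in Gata6+Itga6- minus remaining basal cells, -0.12 as the median of probe sets, was 2.52 with the brightest probe set and 0.21 with their mean. In Gata6+Itga6+ minus remaining basal cells it was 0.05, and with 1 array left out its lowest value was -0.020 and its highest 0.12. Of 44 differences called under no setting, 24 changed sign in one, none of them over 0.288 in size.

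Deviations of samples with the same replicate number had a median r of 0.009 (-0.14 to 0.28 over 18 pairs). With other numbers it was -0.006 (-0.24 to 0.27 over 36 pairs). For the same array row the median was 0.047 (-0.17 to 0.28), against -0.010 for other rows. No clear pairing was seen, which does not show whether populations came from the same mice. A replicate block ended the calls of Cyp1b1 in Gata6+Itga6+ over remaining basal cells (2.62, adjusted p = 0.102), of Ahr in Gata6+Itga6- over remaining basal cells (0.0515), and those of Gclm's probe set 5434568 in Gata6+Itga6+ over remaining basal cells (0.0753) and in Gata6+Itga6- against CD34+Itga6+ cells (0.0926), and left 204 genes called between Gata6+Itga6+ and remaining basal cells instead of 242. Over all genes, the mean of probe sets raised the calls from 819 to 1300, 242 to 454, 567 to 995, 1421 to 2159, 913 to 1403 and 892 to 1513, in the order of comparisons in the report. For Gata6+Itga6+ over remaining basal cells there were 151 calls with pseudocount 16, 127 with brightness, 110 with 2 populations and 131 to 343 with 1 array left out. Other counts beyond 1.5 times were 503 with the brightest probe set (Gata6+Itga6+ against CD34+Itga6+), 359 with brightness (Gata6+Itga6- against Gata6+Itga6+; 285 at the lowest with 1 array left out) and 571 with 2 populations (CD34+Itga6+ against remaining). Of the calls between Gata6+Itga6+ and the remaining basal cells, the share higher in the first was 78.9%, 63.2% after another quantile normalization and 62.2% with brightness. It was 66.5%, 53.8% and 50.5% for CD34+Itga6+ over remaining, and moved with brightness from 36.7% to 50.4% for Gata6+Itga6- over Gata6+Itga6+ and from 40.4% to 51.4% over CD34+Itga6+ cells.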
